A study of Homo sapiens with 3 samples.

Results

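Mitochondrial ribosomal protein genes were examined in chromatin immunoprecipitation maps of VCP from HCT116, a human colorectal cancer cell line. Members were all protein-coding genes whose symbol is MRPL or MRPS followed by a number and an optional letter, which gave 77 of 19866 protein-coding genes, 49 named for the large subunit and 28 for the small one. Per the labels, 1 library came from precipitation with a VCP antibody, 1 from precipitation with a Flag antibody and 1 from input without an antibody, all from HCT116 cells that overexpressed Flag-tagged VCP. Chromatin was fixed and cut with micrococcal nuclease. No group in these 3 libraries lacked the tagged protein, and neither the promoter driving it nor whether the cells were 1 clone is given in the sources used here. Peak lists hold no expression values, so the cell type could not be checked against marker genes. Every comparison rests on 1 library per antibody, so shares are set beside those of all protein-coding genes as descriptions, without a test between libraries.

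The mitochondrial ribosome translates the few messenger RNAs encoded by mitochondrial DNA, all of them for subunits of the oxidative phosphorylation complexes. Its ribosomal RNAs come from the mitochondrial genome, while its proteins are encoded in the nucleus, made in the cytosol and imported. Systematic names mark proteins that are found in all ribosomes (u), in those of bacteria (b) or in mitochondria but not in bacteria (m), followed by L or S for the subunit. VCP is an ATPase that pulls ubiquitin-tagged proteins out of complexes, membranes and chromatin.

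The promoters below belong to members with the highest -log10 q in each list, and not every peak covers the bases shown. The summit lies within them at MRPL30, MRPS31 and MRPL38 and outside them at MRPL42, MRPL54 and MRPS22. The peak overlaps all 300 bases at MRPL30, 189 at MRPS31, 166 at MRPL38, 38 at MRPL42, 30 at MRPL54 and 0 at MRPS22. The first 4 are those of the members with the highest -log10 q in the Flag list, and MRPL38 and MRPS22 share the highest -log10 q of the members in the VCP list and were added after their values were seen. Each runs from 250 bases before the transcript start to 50 bases after it (RefSeq, GRCh38.p14), 5′ to 3′ on the strand of the gene, and capitals mark exact matches to any of the 6 motifs described further on.
MRPL30 (chr2:99180934-99181233, plus strand): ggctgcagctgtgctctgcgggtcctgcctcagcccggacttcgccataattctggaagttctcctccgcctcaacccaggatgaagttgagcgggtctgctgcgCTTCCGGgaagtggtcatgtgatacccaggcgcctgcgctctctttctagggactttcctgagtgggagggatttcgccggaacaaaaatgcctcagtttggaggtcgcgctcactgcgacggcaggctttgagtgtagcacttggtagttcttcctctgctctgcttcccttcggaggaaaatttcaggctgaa
MRPS31 (chr13:40771141-40771440, minus strand): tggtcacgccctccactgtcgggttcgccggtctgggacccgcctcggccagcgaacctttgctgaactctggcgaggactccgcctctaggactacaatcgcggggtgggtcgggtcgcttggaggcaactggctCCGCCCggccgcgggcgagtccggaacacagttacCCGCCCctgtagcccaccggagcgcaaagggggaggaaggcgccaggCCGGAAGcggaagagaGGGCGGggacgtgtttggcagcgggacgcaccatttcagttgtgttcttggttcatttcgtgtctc
MRPL42 (chr12:93467264-93467563, plus strand): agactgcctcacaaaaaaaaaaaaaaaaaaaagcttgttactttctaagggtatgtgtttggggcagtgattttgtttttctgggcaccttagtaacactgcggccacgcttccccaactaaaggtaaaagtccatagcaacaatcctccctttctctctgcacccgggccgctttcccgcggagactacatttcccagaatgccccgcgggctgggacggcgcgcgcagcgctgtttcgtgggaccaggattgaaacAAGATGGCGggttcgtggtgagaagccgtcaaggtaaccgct
MRPL54 (chr19:3762432-3762731, plus strand): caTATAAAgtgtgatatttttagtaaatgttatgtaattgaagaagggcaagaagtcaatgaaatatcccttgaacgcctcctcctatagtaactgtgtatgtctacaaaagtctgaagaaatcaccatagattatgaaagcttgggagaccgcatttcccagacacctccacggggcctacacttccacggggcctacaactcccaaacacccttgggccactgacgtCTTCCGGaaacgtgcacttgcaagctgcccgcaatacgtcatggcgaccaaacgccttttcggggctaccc
MRPL38 (chr17:75904835-75905134, minus strand): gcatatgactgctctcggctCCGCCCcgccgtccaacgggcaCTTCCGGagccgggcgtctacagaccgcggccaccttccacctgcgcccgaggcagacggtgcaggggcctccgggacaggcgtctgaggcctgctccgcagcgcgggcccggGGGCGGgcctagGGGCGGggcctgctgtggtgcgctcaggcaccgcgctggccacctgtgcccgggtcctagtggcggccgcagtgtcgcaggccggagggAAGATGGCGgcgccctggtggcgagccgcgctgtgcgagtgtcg
MRPS22 (chr3:139343744-139344043, plus strand): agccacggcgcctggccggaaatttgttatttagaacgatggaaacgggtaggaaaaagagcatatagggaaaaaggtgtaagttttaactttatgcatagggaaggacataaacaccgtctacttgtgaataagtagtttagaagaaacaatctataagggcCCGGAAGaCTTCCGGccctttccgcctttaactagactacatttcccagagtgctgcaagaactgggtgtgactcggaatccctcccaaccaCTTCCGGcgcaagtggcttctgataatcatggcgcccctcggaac

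Peaks were assigned to genes by their summits, which had to fall no more than 1 kb from either gene end. Of the 77 genes, 6 had a VCP peak (7.79%), against 2.34% of all protein-coding genes, and 15 had a Flag peak (19.5%), against 11.7% of all protein-coding genes. The VCP share was 3.34 times that of all protein-coding genes and the Flag share 1.66 times. By subunit, 3 of 49 MRPL genes (6.12%) and 3 of 28 MRPS genes (10.7%) had a VCP peak, and 9 of 49 MRPL genes (18.4%) and 6 of 28 MRPS genes (21.4%) had a Flag peak. Large and small subunit genes therefore both stood above the share of all genes in each list, by counts as low as 3. MRPS30 and MRPS18A carry small subunit symbols but the systematic names mL65 and mL66, which place them in the large subunit, and neither had a peak. The remaining 56 members had a peak at their ends in neither list.

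**Figure D1:**
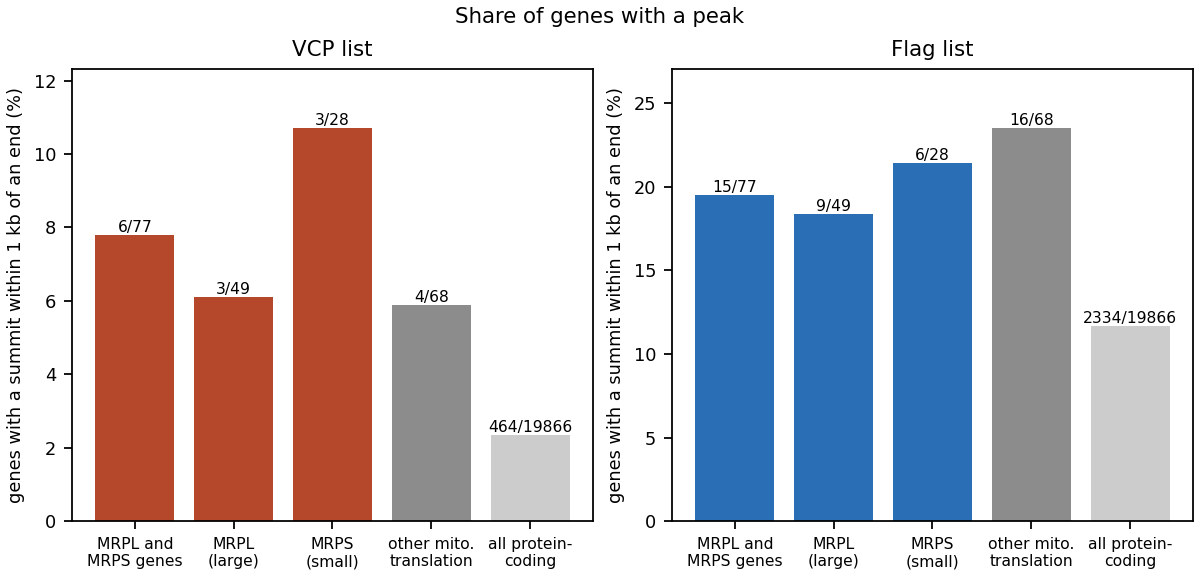
Share of genes with a summit within 1 kb of either end (y axis, percent, from 0) in the VCP list (left) and the Flag list (right), for MRPL and MRPS genes, each subunit by symbol, 68 other genes of mitochondrial translation and all protein-coding genes. Numbers over the bars are genes with a peak over genes in the group, and the last bar of each panel is the lowest, at 2.34% and 11.7%.

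The 6 genes with a VCP peak encode 3 large and 3 small subunit proteins, and 5 of the 6 carry names of the mitochondria-specific class. The fold enrichment given here is the authors' ratio of the summit to the peak caller's background, read with a pseudocount of 1 read added to each. The source of that background (input or surrounding reads) is not stated. Reads were recovered from this ratio and from the p-value of each peak. Their intervals are exact Poisson 95% intervals and cover counting error only. MRPL38 encodes mL38, a protein of the central protuberance of the large subunit. Its VCP peak at chr17:75904969-75905418 had a fold enrichment of 3.39 and 14 reads (7.65 to 23.49) over a background of 3.42, with the summit 110 bp upstream of the start. MRPS23, also on chromosome 17, encodes the small subunit protein mS23. Its peak had 14 reads (7.65 to 23.49) over a higher background of 4.71 and so the lowest fold enrichment of the 6, 2.63, with its summit 114 bp upstream of the start.

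MRPS22 encodes mS22 of the small subunit. Its VCP peak at chr3:139344060-139344245 had the highest fold enrichment of the 6, 4.01, from 10 reads (4.8 to 18.39) over a background of 1.74, with the summit 199 bp downstream of the start. MRPL52 encodes mL52 and had a fold enrichment of 3.65 from 9 reads (4.12 to 17.08), 244 bp downstream of its start. MRPS34 encodes mS34 and had a fold enrichment of 3.23 from 12 reads (6.2 to 20.96), 68 bp downstream of its start. The intervals of all 6 genes overlap, so no order of strength among them can be read from the reads. MRPL4 encodes uL4m, whose bacterial relative lines the exit tunnel of the ribosome. Its peak was the only one of the 6 at a transcript end, 440 bp beyond it, with a fold enrichment of 3.08 from 10 reads (4.8 to 18.39).

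All 6 VCP peaks were weak by the peak caller's adjusted value. Their q ran between 0.201 for MRPL38 and MRPS22 and 0.623 for MRPL4 and MRPS23. None of the 77 genes kept a VCP peak at a q of at most 0.05, a limit that 0.272% of all protein-coding genes passed. Among peaks at gene ends in general 11.6% of 395 VCP peaks passed it. The median -log10 q was 0.39 for the 6 peaks and also 0.39 for all 395, and the median fold enrichment was 3.31 for the 6 and 3.61 for all.

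The Flag list marked 15 genes through 14 peaks. MRPL30, which encodes uL30m, led them by both -log10 q and fold enrichment, at chr2:99180826-99181254, with 15 reads (8.4 to 24.74) over a background of 1.85, a fold enrichment of 5.62 and -log10 q of 4.663. It ranked 117 by -log10 q among the 2027 Flag peaks at gene ends, and it covers all 300 bases of the MRPL30 promoter printed above. MRPS31 encodes the small subunit protein mS31. Its peak at chr13:40771164-40771352 had the most reads of the 14, 19 (11.44 to 29.67), a fold enrichment of 4.79 and a summit 21 bp upstream of the start, the closest to a start of all.

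MRPL42 encodes mL42. Its peak at chr12:93467526-93467719 had 13 reads (6.92 to 22.23), a fold enrichment of 4.92 and a summit 79 bp downstream of the start. MRPL54 encodes mL54 and had 13 reads (6.92 to 22.23) and a fold enrichment of 4.72 at chr19:3762702-3762899, 136 bp downstream of its start. MRPL10 encodes uL10m, the base of the flexible stalk that recruits translation factors, and had 16 reads (9.15 to 25.98) and a fold enrichment of 3.97. These 5 genes, with MRPL55 (bL31m, fold enrichment 4.14) and MRPS9 (uS9m, fold enrichment 4.16), are the 7 of 77 (9.09%) that kept a Flag peak at a q of at most 0.05, against 5.53% of all protein-coding genes. By subunit they are 5 of 49 MRPL genes (10.2%) and 2 of 28 MRPS genes (7.14%).

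The other 8 Flag genes had a q above that limit. MRPS25, which encodes mS25, lay closest to it with a q of 0.0509, 10 reads (4.8 to 18.39) and a fold enrichment of 3.86. MRPL1 encodes uL1m, the protein of the mobile stalk beside the exit site for transfer RNA, and had 10 reads (4.8 to 18.39) and a fold enrichment of 2.63. MRPS5, the gene of uS5m, had 9 reads (4.12 to 17.08) and the lowest -log10 q of the 15, 0.207. MRPL33, MRPL46, MRPL53, MRPS11 and MRPS15 completed the list, with fold enrichments between 2.69 and 3.06. Over the 14 peaks the median fold enrichment was 3.92 and the median -log10 q 1.57, against 3.67 and 1.29 over all 2027 Flag peaks at gene ends. Of the 14 peaks 50% reached a q of at most 0.05, against 45.1% of the 2027. The strength of the member peaks was thus near that of gene-end peaks at large.

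**Figure D2:**
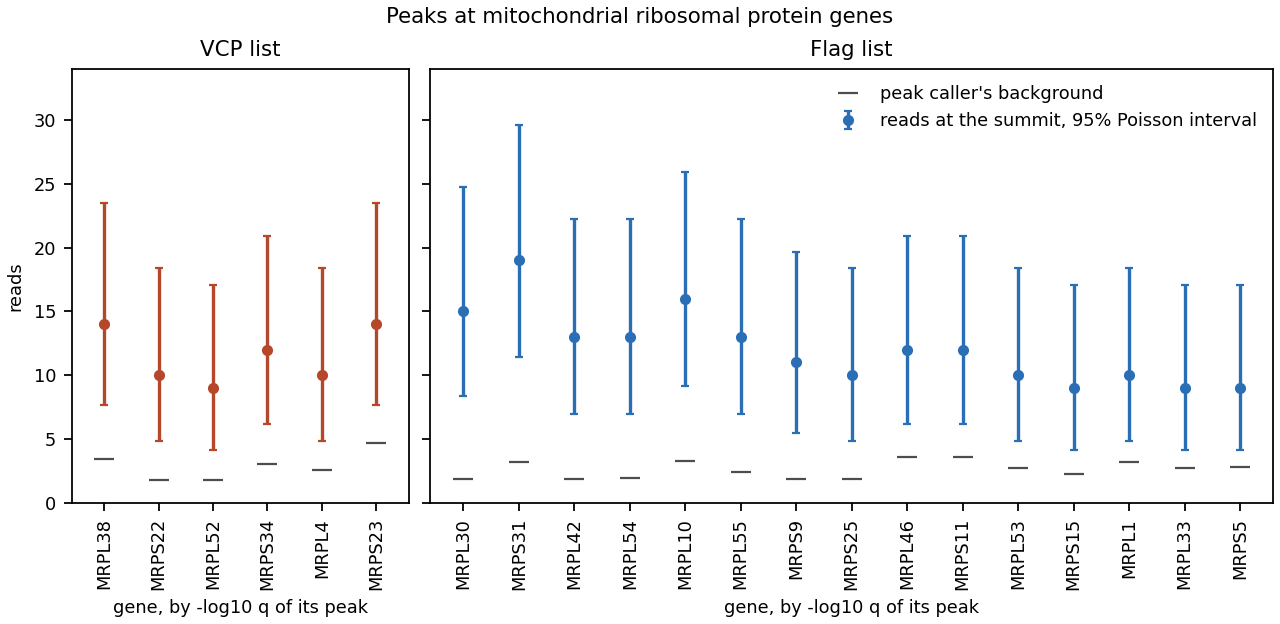
Reads at the summit (points, with exact Poisson 95% intervals) and the peak caller's background (dashes) for each MRPL and MRPS gene with a peak (x axis, ordered by -log10 q), in the VCP list (left) and the Flag list (right), on the same axis from 0 reads. Reads run between 9 and 14 in the VCP list and between 9 and 19 in the Flag list, and MRPL46 and MRPS11 show the same peak.

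No gene was marked in both lists. The 6 VCP genes and the 15 Flag genes were different genes, and 0 of the 77 had a summit of each, against 0.987% of all protein-coding genes. Among all protein-coding genes the 196 marked in both lists made up 42.2% of those with a VCP peak and 8.4% of those with a Flag peak. At the level of peaks, 0 of the 6 VCP peaks overlapped any Flag peak by 1 bp or more, against 32.4% of the 395 VCP peaks at gene ends. Likewise 0 of the 14 Flag peaks overlapped a VCP peak, against 6.27% of the 2027. The nearest summit of the other list lay between 12004 bp (MRPS23) and 160649 bp (MRPL4) from the VCP summits. Each list holds only regions above its own threshold, with at least 7 reads at a summit in either list, so a gene without a listed peak was not shown to lack signal.

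Members were often close neighbours of other genes. Another protein-coding gene end lay within 1 kb of an end of 42 of the 77 genes (54.5%), against 28.5% of all protein-coding genes. The count includes MRPS24, whose only such neighbour is URGCP-MRPS24, an entry named after MRPS24 itself. MRPS28 has TPD52-MRPS28, named in the same way, beside TPD52. For 69 members the start and strand are known, and 22 of these (31.9%) lay head to head, that is, with a start on the other strand within 1 kb, against 11.9% of the 15842 protein-coding genes with a known start. MRPL46 and MRPS11 form such a couple on chromosome 15 with starts 320 bp apart, 1 gene for each subunit. They share a Flag peak at chr15:88467183-88467628 with 12 reads (6.2 to 20.96), a fold enrichment of 2.82 and a summit 45 bp inside MRPL46 and 365 bp upstream of MRPS11.

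Of the 14 Flag peaks, 4 (28.6%) also counted for another protein-coding gene, against 19.9% of all Flag peaks at gene ends, and of the 6 VCP peaks 1 did (16.7%), against 17.7%. MRPL30 lies head to head with MITD1, a gene of cell abscission, with starts 126 bp apart, and the summit lay 85 bp from MRPL30 and 41 bp from MITD1. MRPL10 and LRRC46 have ends 129 bp apart, and the summit lay 125 bp from MRPL10 and 254 bp from LRRC46. The MRPL53 summit lay 281 bp from that gene and 129 bp from the end of CCDC142, which lies upstream on the same strand. The VCP peak of MRPS34 lay 68 bp from its start and 256 bp from that of EME2, which encodes a partner of the MUS81 nuclease and whose start is 324 bp away on the other strand. Reads at these shared sites cannot be assigned to 1 of the genes, and the nearer end was that of the neighbour at MRPL30 and MRPL53.

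Across the genome, genes with a neighbour were marked more often, and over all members the shares ran the other way. With another gene end within 1 kb, 2 of 42 members had a VCP peak (4.76%), against 3.62% of all such protein-coding genes. Without one, 4 of 35 members had a VCP peak (11.4%), against 1.82%. For the Flag list, 6 of 42 members with a neighbour had a peak (14.3%), against 18.5%, and 9 of 35 members without one had a peak (25.7%), against 9.06%. Among the genes without a neighbour were MRPL38, MRPS23 and MRPL52 in the VCP list and MRPS31, MRPL42, MRPL55 and MRPS9 in the Flag list. The subunits differed in this. In the VCP list small subunit genes had 2 of 14 (14.3%) with a neighbour and 1 of 14 (7.14%) without, and large subunit genes 0 of 28 and 3 of 21 (14.3%). In the Flag list large subunit genes were nearly level, with 5 of 28 (17.9%) and 4 of 21 (19%), and small subunit genes had 1 of 14 (7.14%) and 5 of 14 (35.7%). These counts are small, and the difference between the strata was not tested.

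**Figure D3:**
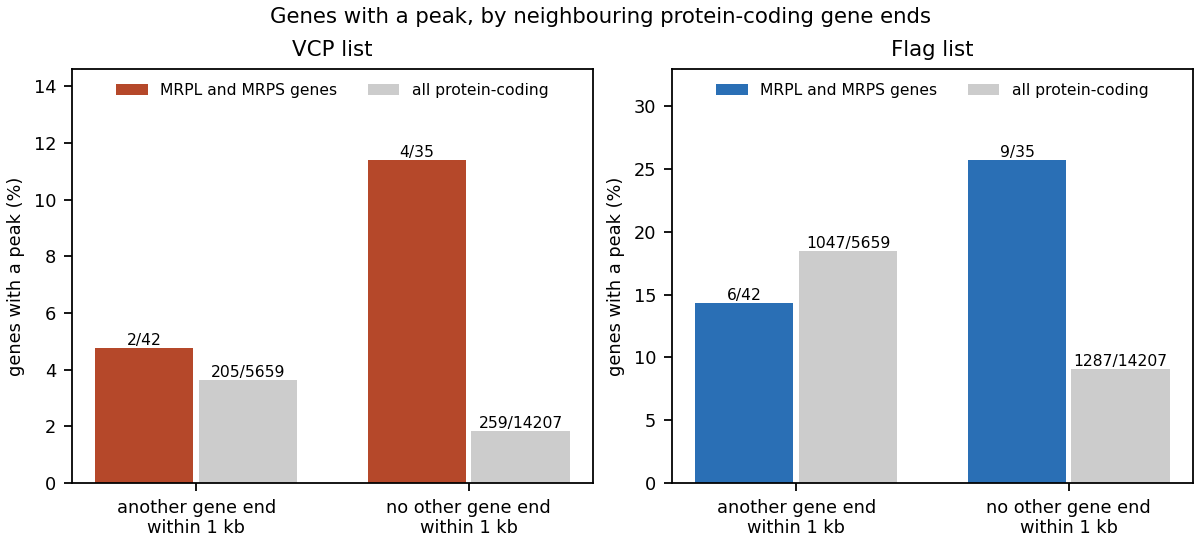
Share of genes with a peak (y axis, percent, from 0) in the VCP list (left) and the Flag list (right), split by whether another protein-coding gene end lies within 1 kb, for MRPL and MRPS genes (coloured) and all protein-coding genes (grey). In the Flag list members without a neighbour reach 25.7% against 9.06%, and members with one 14.3% against 18.5%.

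Most summits lay at transcript starts, as they did for protein-coding genes at large. Of the 6 VCP genes, 5 (83.3%) had the summit within 1 kb of the start, against 86.5% of the 384 protein-coding genes with a VCP peak and a known start. Of the 15 Flag genes, 14 had a known start and all 14 (100%) had the summit there, against 91.3% of 1960, and MRPL10 has no start in the table used. The summits at starts lay between 368 bp upstream (MRPS9) and 275 bp downstream (MRPL33) in the Flag list, and between 114 bp upstream (MRPS23) and 244 bp downstream (MRPL52) in the VCP list. Downstream summits were 3 of 5 in the VCP list (60%), against 46.7% of all pairs of a gene start and a VCP summit within 1 kb of it, and 7 of 14 in the Flag list (50%), against 41.1%. The median distance to the start was 114 bp for members and 169 bp for all in the VCP list, and 180.5 bp for members and 179 bp for all in the Flag list.

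**Figure D4:**
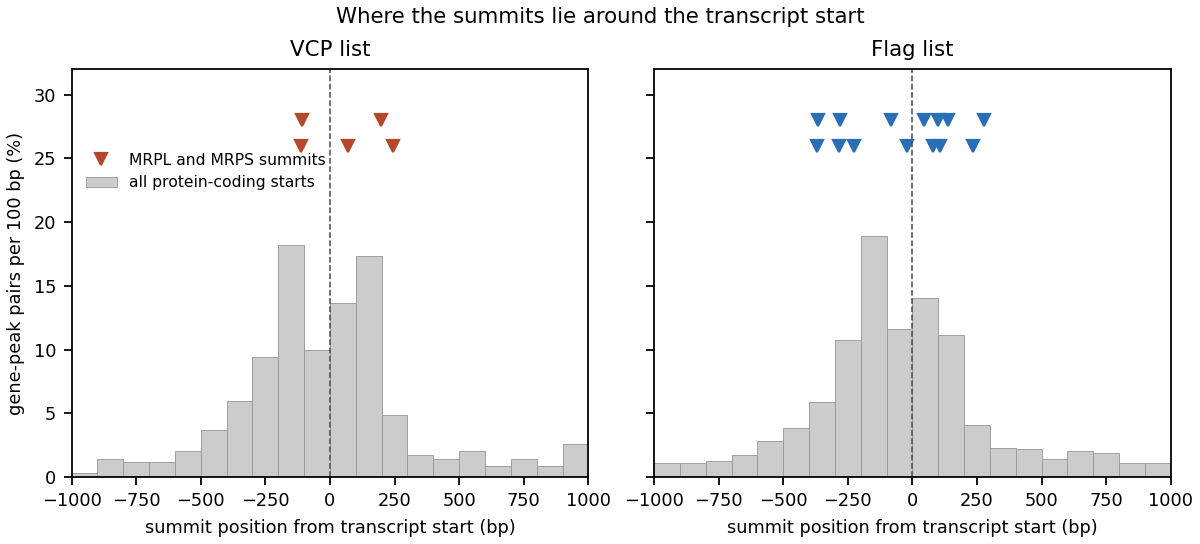
Position of summits relative to the transcript start (x axis, bp, upstream negative) for MRPL and MRPS genes (triangles, offset in height only to separate them) and for all protein-coding genes with a known start (grey bars, percent of gene and summit pairs per 100 bp), in the VCP list (left) and the Flag list (right). All member summits plotted, which leave out MRPL4 and MRPL10, lie between 368 bp upstream and 275 bp downstream, within the broad central mass of the grey bars.

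Beyond the window, MRPS2, the gene of uS2m, had a Flag summit 1128 bp inside its end with 11 reads (5.49 to 19.68) and a fold enrichment of 4.21. MRPS16 (bS16m) had one 1395 bp away with a fold enrichment of 2.87, and MRPL34 (bL34m) one 3169 bp away with a fold enrichment of 4.14. In the VCP list the next nearest summits lay at 4224 bp from MRPL12, 11860 bp from MRPL40 and 24293 bp from MRPL27. Just inside the window, the farthest were MRPL4 at 440 bp in the VCP list and MRPS9 at 368 bp in the Flag list. Away from their ends the gene bodies held 0 VCP summits and 2 Flag summits, that of MRPS2 and 1 deep inside MRPS28. The share of all protein-coding genes with such a summit was not computed, so these counts cannot be called low or high. The median distance to the nearest summit over all members was 438.5 kb in the VCP list, against 516.8 kb for all protein-coding genes, and 54.1 kb in the Flag list, against 89 kb.

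By systematic name, the VCP genes were 5 of the 31 mitochondria-specific proteins (16.1%), 1 of the 26 universal ones (3.85%) and 0 of the 18 bacterial ones. The Flag genes were 6 of the 31 mitochondria-specific (19.4%), 7 of the 26 universal (26.9%) and 2 of the 18 bacterial ones (11.1%). MRPS24 and MRPS28 have no such name in the table and no peak at their ends. All protein-coding genes stood at 2.34% for VCP and 11.7% for Flag, so the bacterial class in the Flag list was near that share, and the classes differ by a few genes. Members lie on 21 chromosomes, the VCP genes on 5 and the Flag genes on 9. On chromosomes 8, 10 and 17, parts of which are gained in HCT116, lay 13 members, with the VCP peaks of MRPL38 and MRPS23 and the Flag peak of MRPL10. Without these chromosomes 4 of 64 members had a VCP peak (6.25%), against 2.25% of all protein-coding genes, and 14 had a Flag peak (21.9%), against 11.5%.

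Promoters of the members were compared with those of all protein-coding genes by exact matches on either strand in the same 300 bases, with overlaps between motifs allowed. Of the 77 members 69 matched a RefSeq promoter, and MRPL2, MRPL10, MRPL13, MRPL15, MRPL21, MRPL23, MRPL35 and MRPS28 are named only. The ETS core CCGGAAG, which GABP binds, was found in 29 of 69 member promoters (42%), against 14.2% of 15842 promoters. The YY1 motif AAGATGGCG was found in 13 (18.8%), against 2.69%. The CCAAT box CCAAT of NF-Y was found in 20 (29%), against 36.4%, and the TATA box TATAAA in 2 (2.9%), against 9.75%. Matches counted wherever they fell in the 300 bases, and the TATAAA of MRPL54 begins 248 bp upstream of the start. The GC box GGGCGG of SP1 was at 59.4%, against 58.3%, and the NRF1 consensus palindrome at 1.45%, against 1.77%. Median G and C content was 60.3% in member promoters and 62.7% in all.

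The ETS core was present at all 5 genes with a VCP peak at the start, and MRPL4, whose peak is at the transcript end, had none. The share was 5 of 6 VCP genes (83.3%), against 21.9% of all protein-coding genes with a VCP peak and a known promoter. For the Flag list it was 5 of 14 genes (35.7%), against 23.1%. Over all 69 members with a known promoter the share was 42%, so the Flag genes stood below the members as a whole. The difference between members with and without a peak was not tested. The MRPS22 promoter holds 3 ETS cores, of which 2 stand back to back, beginning 87 bp and 79 bp upstream of the start. Its VCP peak covers no base of this promoter. The VCP peak of MRPL52, at chr14:22829957-22830262, likewise begins beyond the MRPL52 promoter, so its ETS core is not under the peak. In MRPS31 the core begins 32 bp upstream, in MRPL54 21 bp and in MRPL30 145 bp upstream. The MRPL54 peak lies downstream of the start and does not reach its core. The MRPL42 and MRPL38 promoters hold the YY1 motif just after the start, at positions 9 and 7. The MRPL38 peak lies upstream of the start and does not reach its YY1 motif. MRPS11 and MRPS25 hold none of the 6 motifs, and both had a Flag peak. That of MRPS11 is shared with MRPL46, whose promoter holds a YY1 motif, and its summit lies outside the MRPS11 promoter. Some members without a peak at their ends also hold none of the 6 motifs.

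**Figure D5:**
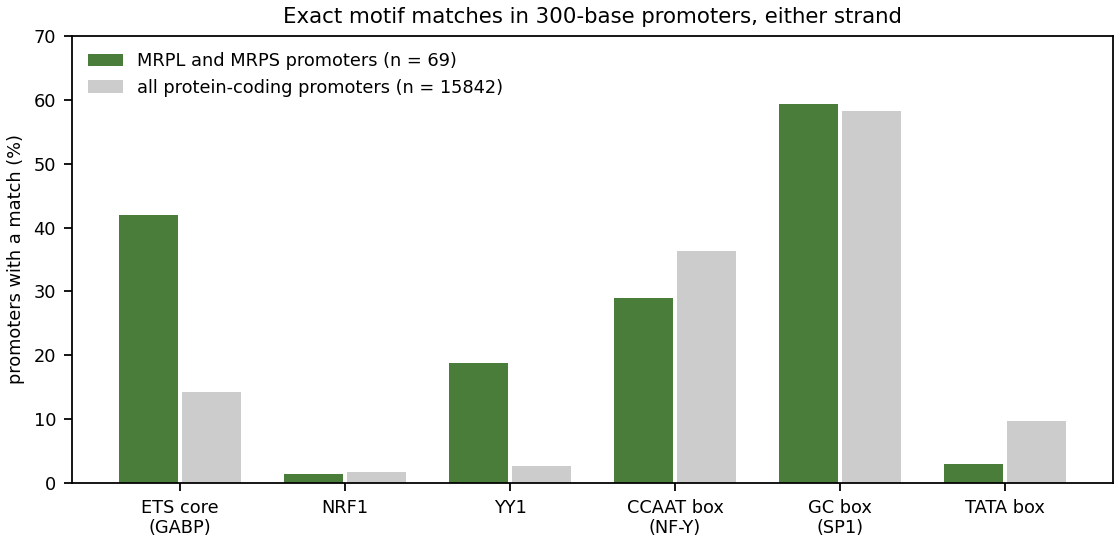
Share of promoters with an exact match to each motif on either strand (y axis, percent, from 0) for 69 MRPL and MRPS promoters (green) and 15842 protein-coding promoters (grey). The ETS core (42% against 14.2%) and YY1 (18.8% against 2.69%) stand higher in the members, while the GC box is near the background.

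Other genes of mitochondrial translation were counted from 4 lists. The MRPL and MRPS shares of 7.79% for VCP and 19.5% for Flag stood close to those of 68 such genes, of which 4 had a VCP peak (5.88%) and 16 a Flag peak (23.5%). Of the 6 members with a VCP peak 0 had an overlapping Flag peak, against all 4 of these genes, which is 100% of their genes with a VCP peak and 25% of those with a Flag peak. They are GATB, a subunit of the amidotransferase that makes glutaminyl transfer RNA (fold enrichment 5.11 with the VCP antibody and 4.57 with the Flag antibody), MTERF4, which brings a methyltransferase to the large subunit RNA (4.46 and 4.28), YBEY, an endonuclease of small subunit maturation (3.95 and 4.57), and the initiation factor gene MTIF3 (2.49 and 3.29). The -log10 q of their VCP peaks was 2.379 at GATB, 1.615 at MTERF4, 0.697 at YBEY and 0.054 at MTIF3. Only 2 of the 4 thus had a q of at most 0.05, while the 6 member peaks ran between 0.21 and 0.7. The difference in sharing between these genes and the members was not tested.

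Of the mitochondrial ribosome subunits with other symbols, 1 of 5 had a Flag peak and 0 a VCP peak. It was PTCD3, which encodes a small subunit protein with RNA-binding repeats, with 16 reads (9.15 to 25.98), a fold enrichment of 5.97 and -log10 q of 5.468, above that of any MRPL or MRPS gene, on a peak that also counts for POLR1A. Assembly factors had a Flag peak at 5 of 26 (19.2%), including METTL17 (fold enrichment 4.21) and ERAL1, which chaperones the small subunit RNA (3.73). Translation factors had one at 3 of 15 (20%), with the elongation factor gene GFM1 at 18 reads (10.67 to 28.45) and MTRFR, a gene of ribosome rescue, at a fold enrichment of 3.76. Of the mitochondrial aminoacyl-tRNA synthetases and their partners 7 of 22 (31.8%) had one, against 11.7% of all protein-coding genes. GARS1 (fold enrichment 3.83) and TARS2 (3.67) were among them beside GATB. At a q of at most 0.05 the Flag counts of these 3 lists fell to 4, 2 and 2, and 5.53% of all protein-coding genes passed. The VCP counts of these 3 lists were 2, 1 and 1 (7.69%, 6.67% and 4.55%), against 2.34% of all protein-coding genes.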

How the data were processed

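Per the labels, HCT116 chromatin was fixed for 10 minutes in 1% formaldehyde, and 10 ng of DNA went into each library, which was amplified over 8 cycles and selected for 250 to 450 bp. Trimmomatic 0.33, Bowtie 1.1.2 and MACS2 2.1.0 are named with hg38 in the submitters' processing notes. How they were set is not stated in these sources. The authors deposited 1 peak list per antibody, 1816 VCP and 5719 Flag peaks, of which 1803 and 5692 lie on chromosomes. Each deposited peak has a fold enrichment ratio, -log10 p, -log10 q and a score, which equals 10 times -log10 p rounded down and was not used. The lowest deposited -log10 p was 3.00 in both lists. Input reads were not used here.

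Fold enrichment was read as the summit reads plus 1 over the background plus 1, that is, with a pseudocount of 1 read. Reads at each summit were recovered as the whole number whose Poisson tail over that background matched the -log10 p. The match was within 0.001 for all 1816 and 5719 peaks. The lowest background was 1.74 reads (VCP) and 1.85 reads (Flag), and the median peak had 10 and 11 reads. PCR copies are not independent molecules, so intervals cover counting error only.

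Genes came from a RefSeq table of GRCh38.p14 (19866 protein-coding on chromosomes 1 to 22, X and Y). Starts came from its promoter table, using the start nearest to the outer gene end. Gene and peak assignment and read recovery were tested on simulated data. The members and gene lists were chosen with earlier results of these data known. Named genes were the members with a peak, their neighbours on the same peak, the 3 members per list just outside the window and up to 4 genes per other list, not all of which are named. Alternatives were stricter q, other windows, starts in place of ends, whole peaks, 1 gene per peak, equal list length and 3 chromosomes left out. Python 3.11.15, pandas 2.3.3 and scipy 1.17.1 were used.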

Additional observations from a re-analysis of the deposited data

How the results depend on the processing

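The VCP peaks of the members did not survive a stricter threshold: at a q of at most 0.05 or a -log10 q of at least 5 the count was 0 of 77. At a q of at most 0.05 the members with a Flag peak were 7, with 5 large and 2 small subunit genes, and at a -log10 q of at least 5 all 3 counts were 0. With the Flag list limited to the length of the VCP list by -log10 q they were again 7, 5 and 2, against 5.33% of all protein-coding genes. Fewer peaks enter under each of these settings. In windows of 500 bp and 3 kb, with starts in place of either end, with any base of the peak, with each peak counted for 1 gene, and without chromosomes 8, 10 and 17, the counts of members stayed within 1.5 times the reported ones, between 4 and 6 for the VCP list and between 12 and 17 for the Flag list. Genes in both lists were 0 under every setting. A stricter q, the 500 bp window, 1 gene per peak, the shorter Flag list, fewer chromosomes and the demand that peaks overlap can only remove genes. Their 0 was therefore fixed by the main result. The 3 kb window and any base of the peak also gave 0, against 1.35% and 1.02% of all protein-coding genes. This followed from the distances. Beyond the 6 VCP genes the nearest VCP summit lay 4224 bp from a member (MRPL12). Among the 6, MRPS23 had the nearest Flag summit, 12118 bp from its end. These settings therefore add no separate evidence. The number of members with a neighbouring gene end was 36 (46.8%) at 500 bp and 54 (70.1%) at 3 kb, against 22% and 41.4% of all protein-coding genes. For the other genes of mitochondrial translation, 5 counts moved by more than 1.5 times, all under a stricter q or the shorter Flag list, and 12 did not. No paired analysis was possible because each antibody has 1 library, and no library could be left out. The median peak rests on 10 VCP reads or 11 Flag reads, which leaves wide counting intervals.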
